A study of Mus musculus with 2 samples.

Results

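The genes described here are Fcgr1, Fcgr2b, Fcgr3 and Fcgr4, which encode the mouse receptors for the Fc part of IgG, and Fcer1g, which encodes the signalling chain that the activating receptors share. The cells were RAW264.7, an established line of mouse macrophage character, and they carried the retrovirus MSCV without an insert (the empty vector) or with miR-155. Every probeset annotated to exactly 1 of these 5 symbols was taken, which gave 10 of the 45101 probesets on the array and 5 of the 18193 genes with a probeset of their own; no probeset with several symbols held one of them. In both groups polybrene was used for the infection, puromycin (7 µg/ml) for selection and limiting dilution for cloning, and RNA from 5 single clones was pooled for each group. Each pool was read on 1 Affymetrix array, so there were no replicates, no p-value was computed, and every value describes these 2 arrays. A signal from a pool of clones does not show how it was shared among the clones, and more cells with a transcript cannot be told apart from more transcript per cell. The genes were chosen by their ratio of miR-155 to empty-vector signal, known from earlier work on these arrays, so the ratios below are a description.

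IgG bound to a microbe or an immune complex is sensed on macrophages by these receptors. Fcgr1, the high-affinity receptor, Fcgr3 and Fcgr4 have no signalling motif of their own for activation in the mouse and pair with the Fcer1g chain, whose tyrosine-based activation motif (ITAM) is phosphorylated by Src-family kinases and recruits the kinase Syk. Fcgr2b is the inhibitory receptor: its cytoplasmic tyrosine-based motif (ITIM) recruits the lipid phosphatase SHIP1, encoded by Inpp5d, and it sets the threshold for phagocytosis and cytokine release when it is engaged together with an activating receptor. Stimulated macrophages shift the balance of both arms, with interferon-gamma known to raise Fcgr1.

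The microRNA delivered by the vector acts through its mature 5p strand, shown because it is what differs between the groups. The RefSeq sequence (GRCm38.p6, chr16:84714143-84714165, plus strand) is given with its seed, bases 2 to 8, in capitals. Array probesets do not measure it, and the 1 probeset of its host gene Mir155hg, at signals of 0.73 with the empty vector and 1.05 with miR-155, does not check the labels, since what part of that transcript the vector carries was not stated in the labels.
mmu-miR-155-5p: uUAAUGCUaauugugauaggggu

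The promoters of Fcgr2b, Fcgr1 and Fcgr4 are shown because these windows differ in the motifs they hold. Whether the motifs bear on the ratios was not tested. Each window runs from 250 bases before to 50 bases after the annotated start, 5′ to 3′ on the gene's strand, from RefSeq (GRCm38.p6); promoters were found for all 5 genes, with 2 windows for Fcgr3. The coordinates are chr1:170976022-170976321 (minus strand) for Fcgr2b, chr3:96293920-96294219 (minus strand) for Fcgr1 and chr1:171018676-171018975 (plus strand) for Fcgr4. Capitals mark the matches, on either strand, to a core of the PU.1 motif (GAGGAA), to the GAS element (gamma-activated site) (TTCNNNGAA), to the interferon-stimulated response element ISRE (2 copies of GAAA with any 2 bases between them), to a C/EBP motif (TTGCNNAA) and to an AP-1 motif (TGANTCA).
Fcgr2b: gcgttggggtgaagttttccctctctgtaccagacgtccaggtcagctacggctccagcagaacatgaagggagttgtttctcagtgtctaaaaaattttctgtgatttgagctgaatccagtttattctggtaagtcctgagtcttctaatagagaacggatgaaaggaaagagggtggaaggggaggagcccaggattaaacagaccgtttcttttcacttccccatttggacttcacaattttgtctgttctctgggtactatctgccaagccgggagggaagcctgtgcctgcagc
Fcgr1: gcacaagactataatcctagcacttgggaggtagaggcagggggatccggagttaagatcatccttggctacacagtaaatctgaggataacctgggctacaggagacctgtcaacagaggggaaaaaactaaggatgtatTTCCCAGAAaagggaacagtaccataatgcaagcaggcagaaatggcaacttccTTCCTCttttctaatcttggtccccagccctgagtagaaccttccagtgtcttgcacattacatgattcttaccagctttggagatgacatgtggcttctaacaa
Fcgr4: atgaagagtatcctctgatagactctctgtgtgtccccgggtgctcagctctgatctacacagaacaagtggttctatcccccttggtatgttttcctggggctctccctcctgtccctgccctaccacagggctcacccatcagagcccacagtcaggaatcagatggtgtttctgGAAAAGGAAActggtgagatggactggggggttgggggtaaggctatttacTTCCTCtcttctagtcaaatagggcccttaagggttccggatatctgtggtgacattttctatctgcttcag
The Fcgr1 window held 1 PU.1 core, starting 55 bases before the annotated start, and 1 GAS element, starting 109 bases before it. The Fcgr4 window held 1 PU.1 core and 1 ISRE, and both Fcgr3 windows held 1 PU.1 core and 1 C/EBP motif. The windows of Fcgr2b and Fcer1g held none of the 5 motifs. Among 32851 promoter windows of this length, 28.3% held the PU.1 core, 8.3% the GAS element, 3.44% the ISRE, 10.8% the C/EBP motif and 7.81% the AP-1 motif. A match is only a string of letters, and its absence says nothing about binding outside the window.

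The inhibitory receptor showed the greatest difference. The brightest Fcgr2b probeset, 1435477_s_at, read 40.9 with the empty vector and 650 with miR-155. It stood above 66.7% of the probesets with the empty vector and above 94.1% with miR-155. The signal was 15.9-fold higher with miR-155, a log2 ratio of 3.99. Among the 500 genes nearest in mean signal, log2 ratios had a robust SD (the local SD below) of 0.27, and none of those genes had a log2 ratio as high. This SD comes from the same 2 arrays, real differences included, and does not measure variation between cultures or clones.

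The other Fcgr2b probesets bore on the size of the difference. Probeset 1451941_a_at, annotated to another sequence of the gene, read 28.5 and 405 (empty vector first here and below), a log2 ratio of 3.83. Probeset 1435476_a_at read 53.3 and 369, a log2 ratio of 2.79. Probeset 1455332_x_at read 41.0 and 263, a log2 ratio of 2.68. All 4 were therefore between 6.4-fold and 15.9-fold higher with miR-155, and all started near the signal floor of 25.8, which is the mean signal at the border of the brighter 50% of genes. Of the 4, 3 are annotated to the same sequence, and the suffixes s and x mark probes that can respond to related transcripts, so they are not 4 independent readings. The range of log2 ratios over the 4 probesets was 1.31, against a median range of 0.49 over the 338 other genes with 4 probesets read above the floor, of which 5 had a range as wide. The last Fcgr2b probeset, 1447622_at, read 1.19 and 3.27, far below the floor, and is not used for the size of the difference.

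On the activating side, Fcgr1 had 2 probesets and read 1.58-fold and 1.53-fold higher by them. The brighter one, 1417876_at, read 716 and 1130 (1.58-fold higher, log2 ratio 0.66, local robust SD 0.17), and 5 of the 500 genes nearest in signal had a ratio as high. The dimmer one, 1436625_at, read 145 and 222 (log2 ratio 0.62, local SD 0.29), with 15 of 500 genes as high. The pair thus gave nearly the same ratio at different signals.

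Fcgr3, a low-affinity receptor, read 90.4 and 123 by its single probeset, 1448620_at. Its log2 ratio of 0.44 (local SD 0.34) was reached by 41 of the 500 nearest genes, so it did not stand apart from genes of like signal. Fcgr4, the receptor for IgG2a and IgG2b, read 24.3 and 34.8 by 1425225_at. The first reading lay below the floor, where 90 of the 500 nearest genes showed a ratio as high, and no ratio is given.

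The shared chain Fcer1g was among the brightest probesets on both arrays. Its single probeset, 1418340_at, read 2250 and 3658, above 98.4% and 99.2% of the probesets. It was 1.63-fold higher with miR-155 (log2 ratio 0.70), and at this brightness the local SD was 0.13 and 6 of the 500 nearest genes had a ratio as high. Tyrobp, the other ITAM adaptor of macrophages, read 4758 and 4607 (log2 ratio −0.05, local SD 0.11).

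**Figure D1:**
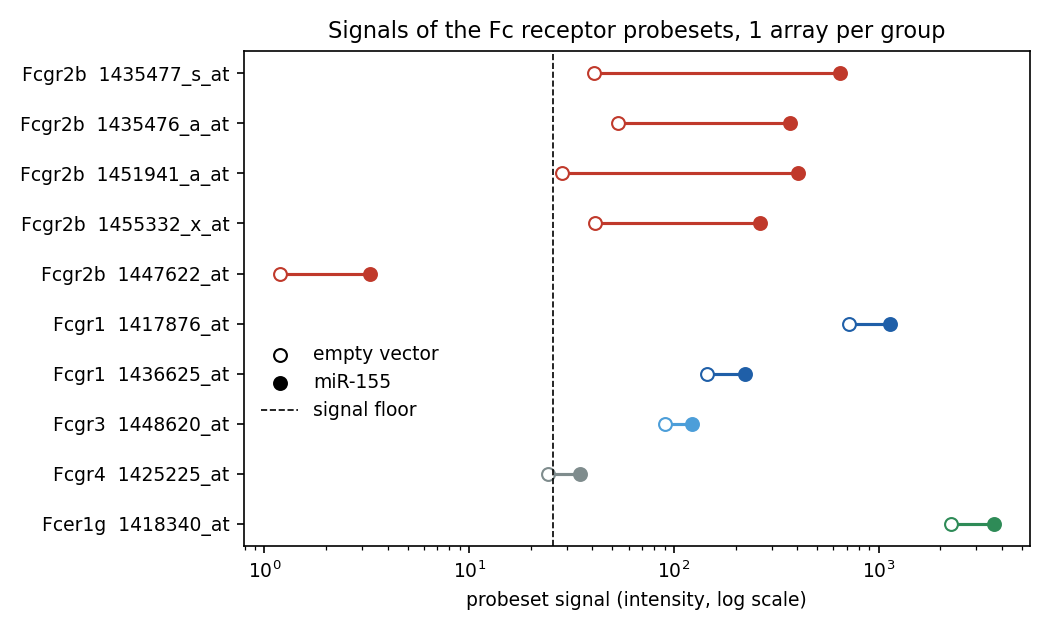
Signals of the 10 probesets on the empty-vector array (open circles) and the miR-155 array (filled circles), on a log axis of intensity, with the signal floor of 25.8 dashed. Every filled circle lies to the right of its open one; 4 Fcgr2b probesets start between 28.5 and 53.3 and end between 263 and 650, and the fifth stays below the floor.

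**Figure D2:**
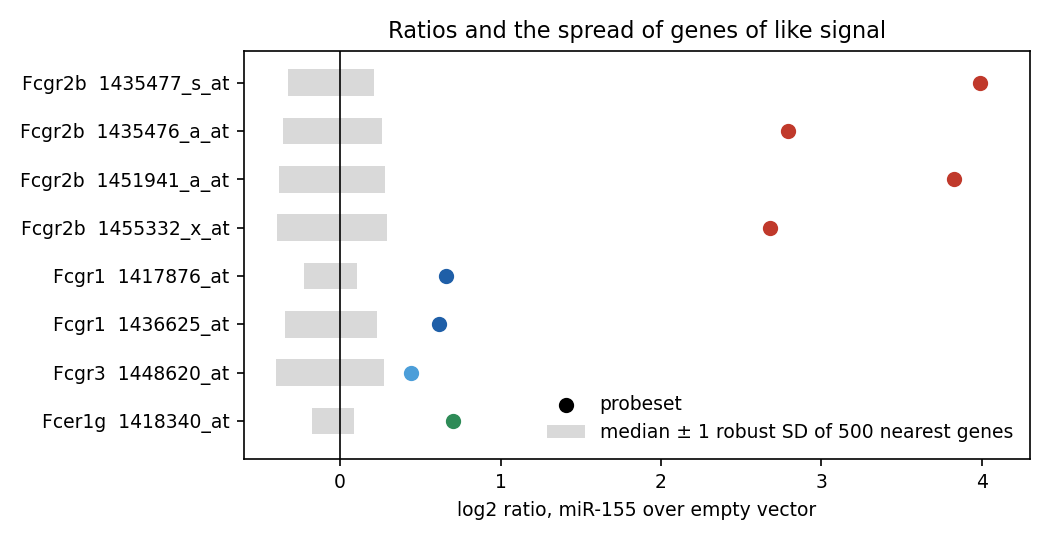
Log2 ratio of miR-155 over empty vector for the 8 probesets with neither reading below the floor (points), with grey bars for the median ± 1 robust SD of the 500 genes nearest in signal. The 4 Fcgr2b probesets lie between 2.68 and 3.99 and the others between 0.44 and 0.70.

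Read by gene, all 5 were higher with miR-155, Fcgr4 with a reading below the floor, where 42% of the 9097 genes in the brighter 50% had a log2 ratio above 0. By 1.5-fold or more, 3 of the 5 were higher (Fcgr2b, Fcgr1 and Fcer1g), beside 5.32% of all genes kept, and 0 were lower, beside 5.99%. By 2-fold or more, Fcgr2b alone was higher, beside 1.92%, and 0 were lower, beside 1.43%. Nothing is read from these counts, because the choice of genes used the same contrast. The median log2 ratio of all genes kept was −0.05, so a common shift of the arrays was small beside the ratios of Fcgr2b, Fcgr1 and Fcer1g.

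**Figure D3:**
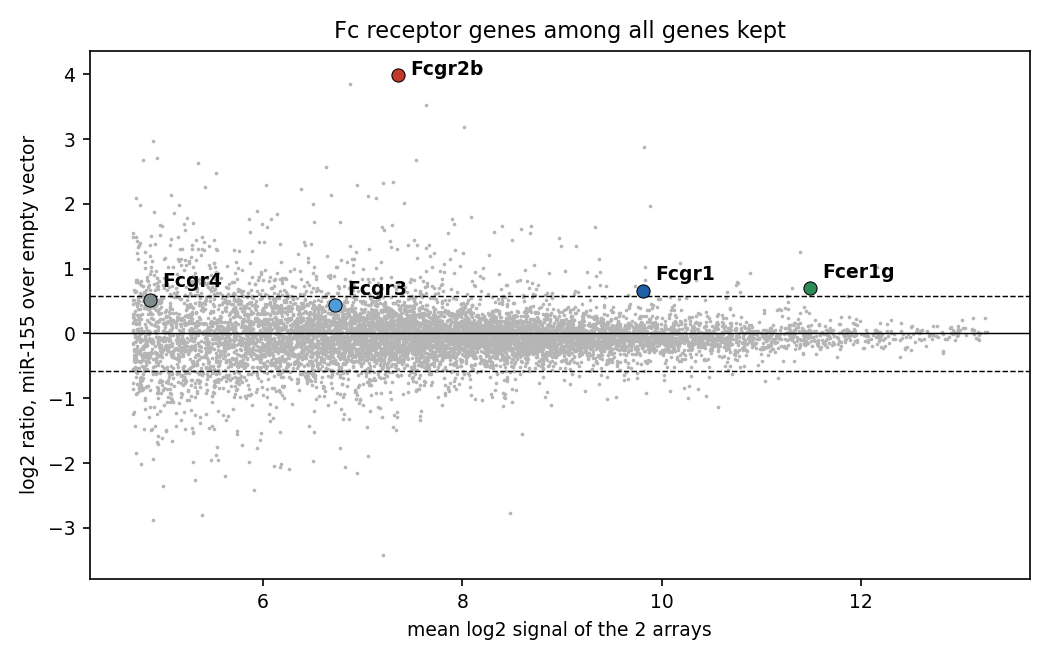
Log2 ratio against the mean log2 signal of the 2 arrays for the 9097 genes kept, each by its brightest probeset (grey), with the 5 Fc receptor genes in colour and 1.5-fold dashed. Fcgr2b lies at the top at 3.99, Fcgr1 and Fcer1g just above the upper dashed line where the grey cloud is narrow, and Fcgr3 and Fcgr4, the latter with a reading below the floor, inside the cloud.

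Set against the activating arm, the difference of Fcgr2b was the greater in each pair of probesets. The choice of genes used this same contrast, so the order was known beforehand and is only described. By its brightest probeset, the log2 ratio of Fcgr2b exceeded that of Fcer1g by 3.29, that of Fcgr1 by 3.33 and that of Fcgr3 by 3.55, so the inhibitory signal relative to each of them was 9.79-fold, 10.1-fold and 11.7-fold higher with miR-155. Over all 16 pairs of a Fcgr2b with an activating probeset, all read above the floor, the excess ran from 1.98 to 3.55 on the log2 scale (3.94-fold to 11.7-fold). The pairs reuse the same 4 Fcgr2b probesets, 3 of them annotated to the same sequence, and are not independent. Among themselves, Fcgr1, Fcgr3 and Fcer1g spanned 0.26 on the log2 scale, beside local SDs of 0.17, 0.34 and 0.13. These are unequal changes of signal; amounts of the different receptors cannot be compared from probesets of different genes, and surface protein was not measured.

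Genes near the receptors in the genome were read beside them. Fcgr2b, Fcgr4 and Fcgr3 follow each other on chromosome 1, Fcer1g lies further along it, and Fcgr1 is on chromosome 3. Of 18 further protein-coding genes within 3 genes of a member, 11 had a probeset and 5 passed the signal filter, Cfap126 (46.2 and 31.7), Sdhc (911 and 1082), Tomm40l (130 and 141), B4galt3 (139 and 161) and Txnip (914 and 1022). By the brightest probeset none of these 5 reached 1.5-fold either way, with log2 ratios from −0.54 to 0.25. Over all genes kept, only 5.32% were that far above and 5.99% below, so nothing is read from this count. The further probeset of Sdhc disagreed, at −0.68 against 0.25. Towards the other side of Fcgr2b, 2 genes away, the Fc receptor-like gene Fcrla read 13.5 and 7.31, below the floor.

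The genes most like Fcgr2b, by Euclidean distance in the log2 signals of both arrays, were Tmem176a (0.53), the cyclin Ccnd2 (0.68), the protease inhibitor Slpi (0.97), the glycoprotein Gpnmb (1.1) and the interferon-inducible Ifi202b (1.17). With only 2 arrays this likeness means a like low signal with the empty vector and a like high one with miR-155. Tmem176a read 58.8 and 675, and Ccnd2 read 31.0 and 445. Beside Fcer1g, the nearest gene was Cybb, the membrane subunit of the phagocyte NADPH oxidase (distance 0.22), which read 2382 and 3172.

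Around the receptors, 8 lists of genes were described, holding 157 genes in the brighter 50%, of which 20 (12.7%) lay 1.5-fold or more above and 17 (10.8%) as far below the empty vector, beside 5.32% and 5.99% of all genes kept. Of these, 6 of the 20 and 0 of the 17 had a reading below the floor and passed the filter through the brighter array; over all genes kept these numbers were 99 of 484 and 113 of 545. Of 28 activating kinases and adaptors kept, 4 lay 1.5-fold or more above, 2 as far below and 22 between, around a median log2 ratio of 0.06. Of the 4, Prkce (24.2 and 44.5), named after its values were seen, had an empty-vector reading below the floor. Syk, the kinase that binds the phosphorylated ITAM, read 77.8 and 97.0 (log2 ratio 0.32, local SD 0.37, and 0.32 and 0.36 in 2 further probesets). The kinase Btk had a log2 ratio of 0.01, the phospholipase Plcg2 0.17 and the exchange factor Vav1 0.29 (−0.02 in its further probeset). The Src-family kinase Fgr read 35.6 and 64.1 (0.85, local SD 0.53, and 0.54 in its further probeset). Its relative Fyn had a log2 ratio of 0.71 (local SD 0.28, and 0.57 in its further probeset). The exchange factor Vav3 had 1.27 (local SD 0.45, and 0.64 and 0.81 in 2 further probesets). The phospholipase Plcg1 had a log2 ratio of −0.79 (local SD 0.54). The PI3-kinase subunit Pik3ca had −0.61 (local SD 0.31), against −0.27 and −0.23 in 2 further probesets.

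On the inhibitory side, Inpp5d, which encodes the SHIP1 phosphatase that Fcgr2b recruits and is a reported miR-155 target, went the opposite way to the receptor. Its brighter probeset, 1418110_a_at, read 466 and 247 (1.88-fold lower, log2 ratio −0.91, local SD 0.21), but its further probeset gave −0.02. The tyrosine phosphatase Ptpn6, which binds other ITIM receptors, read 2133 and 1817 (−0.23). Of 18 inhibitory phosphatases and adaptors kept, 2 lay 1.5-fold or more above (the adaptor Dok2 and the phosphatase Ptprc, both 0.64) and 2 as far below (the adaptor Sla, −1.27 and −0.94 by 2 probesets, and Inpp5d), with a median of −0.09. Over all genes kept these shares were 5.32% and 5.99%.

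Other receptors of the inhibitory class went both ways. Of 13 ITIM receptors kept, 4 lay 1.5-fold or more above and 2 as far below, beside 5.32% and 5.99% of all genes kept. The median of the 13 was 0.06. Of the 4, Btla (20.5 and 66.1) and Pilra (21.5 and 48.5), named after their values were seen, had an empty-vector reading below the floor. Cd300lf (33.8 and 100; 1.57) and Cd33 (0.73) read higher, Cd300a (−1.01) and the CD47 receptor Sirpa (−0.67, and −0.66 and −0.23 in 2 further probesets) lower, and Pirb read 22.5 and 32.1, below the floor with the empty vector. Among 11 ITAM adaptors and partner receptors kept, 1 lay 1.5-fold or more above and 5 as far below, around a median of −0.41. The higher gene was the C-type lectin Clec4e (135 and 433, log2 ratio 1.68), whose further probeset had a reading below the floor. The lower ones included Siglech (−1.1), Cd300c2 (−0.76), Cd300lb (−0.72) and Hcst (−0.96), a listed adaptor that has no ITAM itself. Of 13 other immunoglobulin receptors with a probeset, 3 were kept: Fcrl1 was lower (304 and 154, −0.98, but −0.14 in its further probeset), and the cytosolic antibody receptor Trim21 read 0.30. The remaining one, Lgals3, named after its values were seen, read 6316 and 5287 (−0.26, local SD 0.11). The neonatal Fc receptor Fcgrt read 10.2 and 22.6, below the floor on both arrays.

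In the machinery of the phagocytic cup, of 39 genes kept 37 were within 1.5-fold, with a median of 0.02. The 1 gene above and the 1 below stand beside 5.32% and 5.99% of all genes kept. Most genes kept were within 1.5-fold, so the count is not read as a trait of this list. The exceptions were Marcksl1 (0.95, against 0.13 to 0.97 in 3 further probesets) and Wasl (−0.96, against −0.10 and 0.19 in 2 further probesets). Of 14 NADPH oxidase and effector genes, 5 lay 1.5-fold or more above and 0 as far below, around a median of 0.47 beside −0.05 for all genes kept; 1 of the 5, Ltc4s (25.1 and 54.8, named after its values were seen), had a reading below the floor. The median was 0.22 in the brightest 25% of genes. For the oxidase genes kept, by the brightest probeset, log2 ratios were 0.41 (Cybb), 0.12 (Cyba), 0.11 (Rac2), −0.08 (Ncf1) and −0.16 (Ncf4). Among the genes with neither reading below the floor, the largest ratios were those of the prostaglandin synthase Ptgs2 (1.65), Tnf (1.25) and the chemokines Ccl3 (0.97) and Ccl4 (0.94), which are products of many macrophage stimuli.

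From a list of possible regulators of Fc receptor expression, 32 genes were kept. Of these, 3 lay 1.5-fold or more above and 4 as far below, beside 5.32% and 5.99% of all genes kept. The median of the 32 was −0.01. Of the 3, Stat2 (20.9 and 54.1) and Il4ra (17.3 and 41.0), named after their values were seen, had an empty-vector reading below the floor. Whether the listed genes control the Fc receptors in these cells was not tested. Spi1, which encodes PU.1, read 1067 and 700 (log2 ratio −0.61, local SD 0.16); the core of its motif is in the windows of Fcgr1, Fcgr3 and Fcgr4. Cebpb read −0.53 and −0.38 by its 2 probesets. Irf8, the interferon regulatory factor of macrophages, read 595 and 792 (0.41, and 0.72 in its further probeset), and Ets2 was 3.15-fold higher (1.66). Nfe2l2 (−1.01), Fos (−0.97) and Mitf (−0.63) read lower, and the complement receptor C5ar1, known to shift the balance of the Fc receptors, read 3.85 and 36.9, did not pass the signal filter and was far below the floor with the empty vector.

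**Figure D4:**
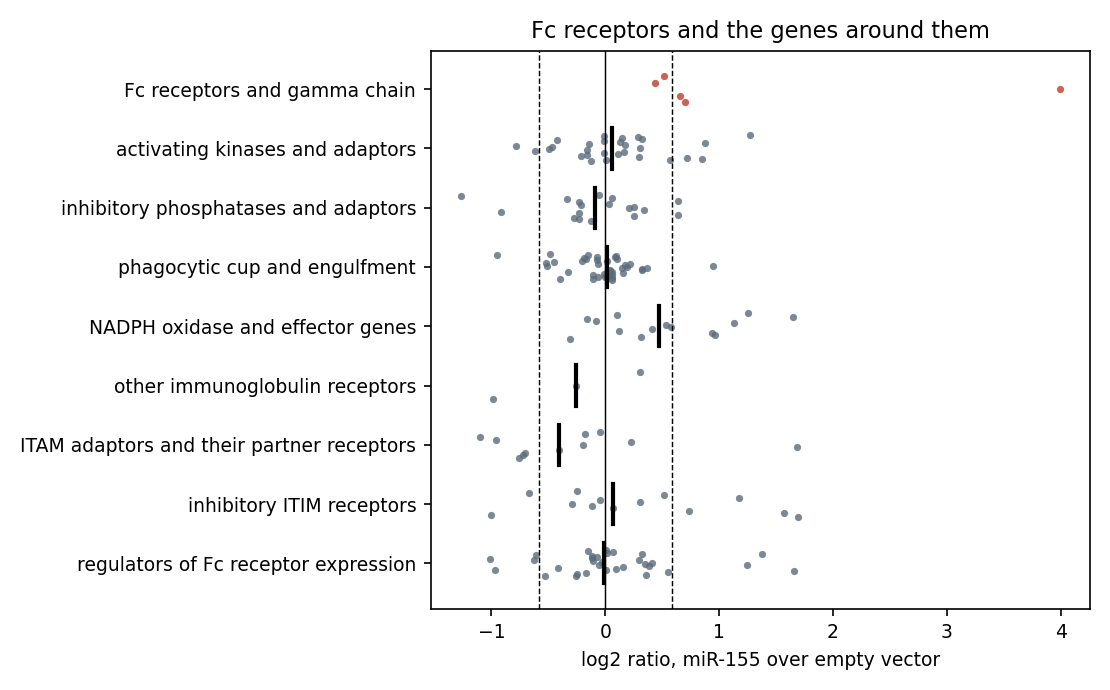
Log2 ratios of the genes kept (points) in each of 8 lists around the Fc receptors, with the median of each list as a black bar and 1.5-fold dashed; the 5 Fc receptor genes are in red, without a median. List medians run from −0.41 for ITAM adaptors and partners to 0.47 for NADPH oxidase and effector genes, and no listed gene lies as far out as Fcgr2b.

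Fcgr2b is also the Fc receptor of B cells, and it is found on mast cells, so the markers of these cells were read beside it. Of 17 B cell markers with a probeset, 4 reached the floor with the empty vector and 3 with miR-155, and their summed signal was 2325 and 2353. The defining markers Cd79a (3.95 and 13.7), Cd79b (1.36 and 7.09), Ms4a1 (5.06 and 6.0) and Pax5 (7.43 and 3.78) lay below the floor on both arrays. The 3 markers that passed the filter were Ighm (1685 and 1523, log2 ratio −0.15), Blnk (341 and 505, 0.57) and Bank1 (148 and 216, 0.55), with a median of 0.55. Of 19 markers of mast cells, basophils and neutrophils, 0 and 1 reached the floor, with summed signals of 157 and 143. The sums were 1579 and 1840 for 16 dendritic cell markers and 160 and 186 for 15 T and NK cell markers. Of the dendritic cell markers kept, Bst2 (1.06) and Cd74 (0.32) read higher, and Siglech (−1.1) and Tcf4 (−0.25) lower. Zap70, the 1 T and NK cell marker kept, read 83.6 and 62.8 (−0.41). Of 20 macrophage markers, 16 reached the floor on each array, with sums of 36129 and 35418 and a median log2 ratio of −0.0025 over the 16. These went both ways, 3 lying 1.5-fold or more above, among them Cd14 (1.26), and 4 as far below, among them Cd36 (−1.13) and Adgre1 (−0.71). Over all genes kept these shares were 5.32% and 5.99%. The macrophage growth factor receptor Csf1r read 6040 and 5095 (−0.25, but −0.99 and −0.96 in 2 further probesets). The part of any other cell type in the Fcgr2b signal was not tested beyond these values.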

How the data were processed

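Total RNA was labelled with biotin and hybridised by the manufacturer's procedures, per the labels' protocols. The authors deposited intensities per probeset, all positive and linear in scale; how they were summarised, background-corrected and scaled, and any detection calls, are not stated. The median intensity was 15.4 (empty vector) and 14.1 (miR-155), and the number of arrays limits the precision.

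Gene names came from the platform annotation, updated by Entrez identifier (RefSeq, GRCm38.p6); 34945 had 1 symbol, 932 several and 9160 were unlisted, and 64 controls were left out. Ratios are log2(miR-155 intensity) minus log2(empty-vector intensity), as deposited. Each gene was represented by its brightest probeset, and genes in the upper 50% of mean log2 signal were kept. Spread was the scaled median absolute deviation (factor 1.4826) over the 500 nearest genes. No ratio is printed where a reading lay below the floor, except for the alternative with plain probesets in the closing section. With 1 array per group there was no test. The steps were tested on simulated data (Python 3.11.15, pandas 2.3.3).

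The members and lists were chosen with earlier results of these data known. Named were all member probesets, a fixed set of genes, genes within 3 of a member and the 5 nearest to Fcgr2b. From each list, up to 4 genes per direction past 1.5-fold with neither reading below the floor were also named. Added after values were seen were the genes nearest to other members, the cell markers, Cybb and the other oxidase genes, and genes marked so above.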

Additional observations from a re-analysis of the deposited data

How the results depend on the processing

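No paired analysis was possible because each group had 1 array, and for the same reason no replicate could be left out. The log2 ratio of Fcgr2b, 3.99 as reported, was 3.55 with an offset of 16, 2.95 with one of 50 and 2.95 when its probesets were averaged. The average took in 1447622_at, far below the floor, which lowered it. With plain probesets only 1447622_at was left, at signals of 1.19 and 3.27, and its value of 1.46 says nothing about the size. Its excess over the median of Fcgr1, Fcgr3 and Fcer1g, 3.33 as reported, was 2.90, 2.32, 2.31 and 0.80 in these 4 settings. Centring, quantile normalisation and raising low readings to the floor moved the ratios of Fcgr1, Fcgr2b, Fcgr3 and Fcer1g by less than their local SD. The number of members 1.5-fold or more above the empty vector was 3 as reported and 3 or 4 in the alternatives, with Fcgr4 counted although 1 of its readings lay below the floor.

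Counts over all genes moved most. With no filter on dim genes, 2072 lay 2-fold or more above and 2518 as far below, and 3111 and 3848 1.5-fold or more. In the upper 25% of signal these were 36, 11, 110 and 95, and with an offset of 50 they were 62, 26, 205 and 196. An offset of 16 gave 104 and 79 at 2-fold and 351 lower at 1.5-fold, and the mean of all probesets 278 and 301 at 2-fold and 914 lower at 1.5-fold. Over the 8 lists, 34 genes lay 1.5-fold or more above and 36 as far below with no filter, 9 and 9 in the upper 25% of signal, and 13 above with an offset of 50. The median of NADPH oxidase and effector genes was 0.22 in the upper 25%, and that of other immunoglobulin receptors, over few genes, 0.012 with no filter and −0.62 in the upper 25%. In 134 of 168 comparisons of a result with an alternative, the value stayed within its spread or within 1.5 times its count. Some of these could not move, so the share does not measure robustness. Centring cannot change a difference between genes, and raising low readings leaves genes above the floor as they were. Plain probesets cannot change a gene that has no others.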
